A study of Mus musculus with 24 samples.

Results

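Small nucleolar RNA host genes are transcribed into long RNAs whose introns hold small nucleolar RNAs. The 10 described here are Gas5, Snhg1, Snhg3, Snhg4, Snhg5, Snhg6, Snhg7, Snhg8, Snhg9 and Snhg12, chosen by symbol out of the 23235 gene records of the table. The list was drawn up with the values of all 8 groups in view, so the levels and ratios of these genes are given as a description and support no test. All 10 passed the filter used for the gene set as a whole, an average over the 8 columns of 1 FPKM or more, which kept 10262 genes.

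When the host transcript is spliced, the excised introns are trimmed to small nucleolar RNAs, which guide the chemical modification of ribosomal RNA in the nucleolus. Box C/D RNAs guide methylation of the ribose and box H/ACA RNAs guide the change of uridine to pseudouridine. The spliced host RNA usually encodes no protein. Many such RNAs begin with a run of pyrimidines, as the mRNAs of ribosomal proteins do (5′ terminal oligopyrimidine or TOP mRNAs), and are degraded by nonsense-mediated decay when ribosomes read their short open frames. Their levels can thus follow transcription or translation-coupled decay.

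All groups were cultures of T11, a claudin-low tumour line from the mouse mammary gland that expresses luciferase per the labels. Treatments were PBS, Omomyc alone, FPP-1746 alone or FPP-1746-Omomyc, each peptide at 5 µM, over 3 h or 6 h, which makes 8 groups of 3 biological replicates. Omomyc, an altered form of MYC's own dimerisation region, blocks the pairing of MYC with MAX and its hold on DNA. FPP-1746 carries cargo into cells, and FPP-1746-Omomyc, the fusion, joins it to Omomyc, so the comparisons ask what the joined peptide does beside each part alone and beside PBS. A treatment tag of the 6 h fusion samples says 3 h while their titles and the table say 6 h, which was followed.

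Each group is a single column, the authors' mean FPKM (fragments scaled to transcript length and library size), so no spread between replicates can be seen and every difference lacks a replicate check. In such bulk values fewer cells of a kind and less RNA per cell cannot be told apart. Column sums lay between 445657 and 594951 FPKM, with the fusion at 3 h highest and the fusion at 6 h lowest. From the step between low values of long transcripts, a level of 1 FPKM over a kilobase corresponded to roughly 26.4 to 52.7 fragments. This estimate takes the fullest bin of 77 to 106 values per column, and averaging over replicates blurs it. Whether it stands for 1 library or for all replicates of a group, and whether the columns truly differ in it, was not tested. All 5 mesenchymal markers reached 1 FPKM and none of 7 epithelial markers did, with Epcam, Cldn3 and Krt18 at 0 in every column. Of 6 macrophage markers, 2 reached 1 FPKM. The summed level of the 6 was 11.2 to 25.8 FPKM in the columns without the fusion and 81.0 and 121 FPKM with it. Of these sums Cd14 made 77.4 and 118 FPKM with the fusion. Cd68 was at 1.05 FPKM in PBS and 3.49 with the fusion at 3 h, called higher, and at 1.38 and 2.75 FPKM at 6 h, while Adgre1 was at 0 in every column and Ptprc, Csf1r and Lyz2 stayed at or below 0.0523 FPKM. The part of this shift in the results was not tested.

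The sequences at the starts of the host genes show what they share apart from their introns. RefSeq promoter windows ran from 250 bases before to 50 after an annotated start in build GRCm38.p6. Those of 8 of the 10 genes were used, with 2 starts for Gas5. Snhg4, which is among the genes called below, and Snhg6 are not part of this set. The counts therefore say nothing of the starts of Snhg4 and Snhg6. The lines below give the 15 bases before and the 15 from each annotated start, with the longest run of C and T touching the 11 bases around the start in capitals.
Gas5, upstream start: agggggcgggCCCgcgagctcgacagcccg
Gas5, downstream start: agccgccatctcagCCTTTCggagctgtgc
Snhg1: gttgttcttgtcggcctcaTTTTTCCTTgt
Snhg12: ggccgttctcagTCCTTTCTCgcttcatcc
Snhg3: tagtcgaccacgcctgaCTTCCgggcgtta
Snhg5: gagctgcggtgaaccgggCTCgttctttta
Snhg7: gtggagatgctcggCCTCTCggcagccatg
Snhg8: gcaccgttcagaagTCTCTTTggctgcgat
Snhg9: tgcggaCTTTCCCTCgccgaagccgcgccc
Runs of at least 5 such bases were present at 7 of 8 genes, against 32.9% of all 32841 windows. Runs of at least 7 were present at 4 of 8, against 14.1%. The run of Snhg12 was 9 bases long and covered the start, that of Snhg1 was 9 bases long and began 4 bases after it, and the median run over all windows was 3 bases.

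The whole windows of 4 of the called genes follow, because those of Snhg1 and Snhg12 belong to the genes that rose at both times, and those of Snhg3 and Snhg9 to genes with another course. Capitals mark the run at the start, any TATA from 50 bases before to 46 after the start, and the motifs CACGTG (the E-box bound by MYC and MAX), TGACGTCA, TGANTCA and TGATGCAA on both strands. Snhg1 is on the plus strand at chr19:8723237-8723536, Snhg12 on the plus strand at chr4:132308428-132308727, Snhg3 on the minus strand at chr4:132353637-132353936 and Snhg9 on the minus strand at chr17:24719916-24720215.
Snhg1: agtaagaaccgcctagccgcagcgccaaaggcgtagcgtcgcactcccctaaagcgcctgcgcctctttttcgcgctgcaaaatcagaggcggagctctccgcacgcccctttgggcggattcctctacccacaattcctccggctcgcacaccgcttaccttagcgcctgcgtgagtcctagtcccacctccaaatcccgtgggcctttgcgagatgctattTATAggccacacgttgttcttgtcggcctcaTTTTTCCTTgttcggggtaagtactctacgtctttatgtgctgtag
Snhg12: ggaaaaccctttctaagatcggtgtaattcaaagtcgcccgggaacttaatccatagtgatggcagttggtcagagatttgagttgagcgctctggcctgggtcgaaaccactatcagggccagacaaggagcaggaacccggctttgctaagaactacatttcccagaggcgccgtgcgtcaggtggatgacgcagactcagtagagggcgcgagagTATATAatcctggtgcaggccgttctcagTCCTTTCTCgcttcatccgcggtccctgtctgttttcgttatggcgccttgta
Snhg3: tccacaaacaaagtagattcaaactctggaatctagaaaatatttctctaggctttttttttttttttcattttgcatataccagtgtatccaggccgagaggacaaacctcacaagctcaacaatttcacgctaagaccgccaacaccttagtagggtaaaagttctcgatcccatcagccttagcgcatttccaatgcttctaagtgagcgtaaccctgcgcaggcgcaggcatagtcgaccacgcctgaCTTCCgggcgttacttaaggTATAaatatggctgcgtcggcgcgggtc
Snhg9: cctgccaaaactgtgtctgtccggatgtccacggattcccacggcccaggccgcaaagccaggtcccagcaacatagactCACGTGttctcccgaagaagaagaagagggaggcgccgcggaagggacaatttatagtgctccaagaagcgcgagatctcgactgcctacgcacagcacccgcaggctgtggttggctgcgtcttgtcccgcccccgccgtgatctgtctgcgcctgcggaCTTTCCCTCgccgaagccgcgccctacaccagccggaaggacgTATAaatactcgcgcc
CACGTG was found in 1 of 8 genes, Snhg9, against 7.15% of all windows, and TGACGTCA in 1 of 8, Gas5, against 1.79%. TGANTCA (7.81% of windows) and TGATGCAA (0.895%) were found in none of the 8. TATA, a letter string looked for after these windows had been read, lay between 45 and 15 bases before the start in 6 of 8 genes, against 7.23% of all windows. Its distance before the start was 32 bases in Snhg12, 30 in Snhg7 and Snhg8, 29 in the downstream start of Gas5, 27 in Snhg1 and 23 in Snhg5. In Snhg3 and Snhg9 the only TATA in the stretch searched around the start came 22 and 34 bases after it. The counts are per gene and take the better of the starts of Gas5, whereas the shares are per window. For Gas5 the TATA, the TGACGTCA and the run of 6 bases belong to the downstream start, and the upstream start has a run of 3 and none of these motifs. The windows are of a later build than the table, and a match describes letters only.

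FPP-1746-Omomyc changed the host genes unevenly. Snhg1 and Snhg12 rose at both times, most others stood above PBS at 3 h and near it at 6 h, and Snhg3 and Snhg4 were lower at 6 h. The call rule was a 2-fold ratio of FPKM + 1 in either direction. At 3 h, 3 of 10 were called higher (Snhg1, Snhg12 and Snhg9) and none lower, where 6.13% of the 10262 tested genes were called higher and 4.42% lower. At 6 h, 2 were called higher (Snhg1 and Snhg12) and 3 lower (Snhg3, Snhg4 and Snhg9), where the shares over all tested genes were 7.13% and 3.34%. The median log2 ratio of the 10 was 0.72 at 3 h and 0.11 at 6 h, beside 0.0034 and -0.026 over all tested genes. The contrast was in view when the list was made, so nothing is read from these counts against the background. A 1.5-fold rule called 6 hosts at 3 h, where it called 30.2% of tested genes in either direction.

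**Figure D1:**
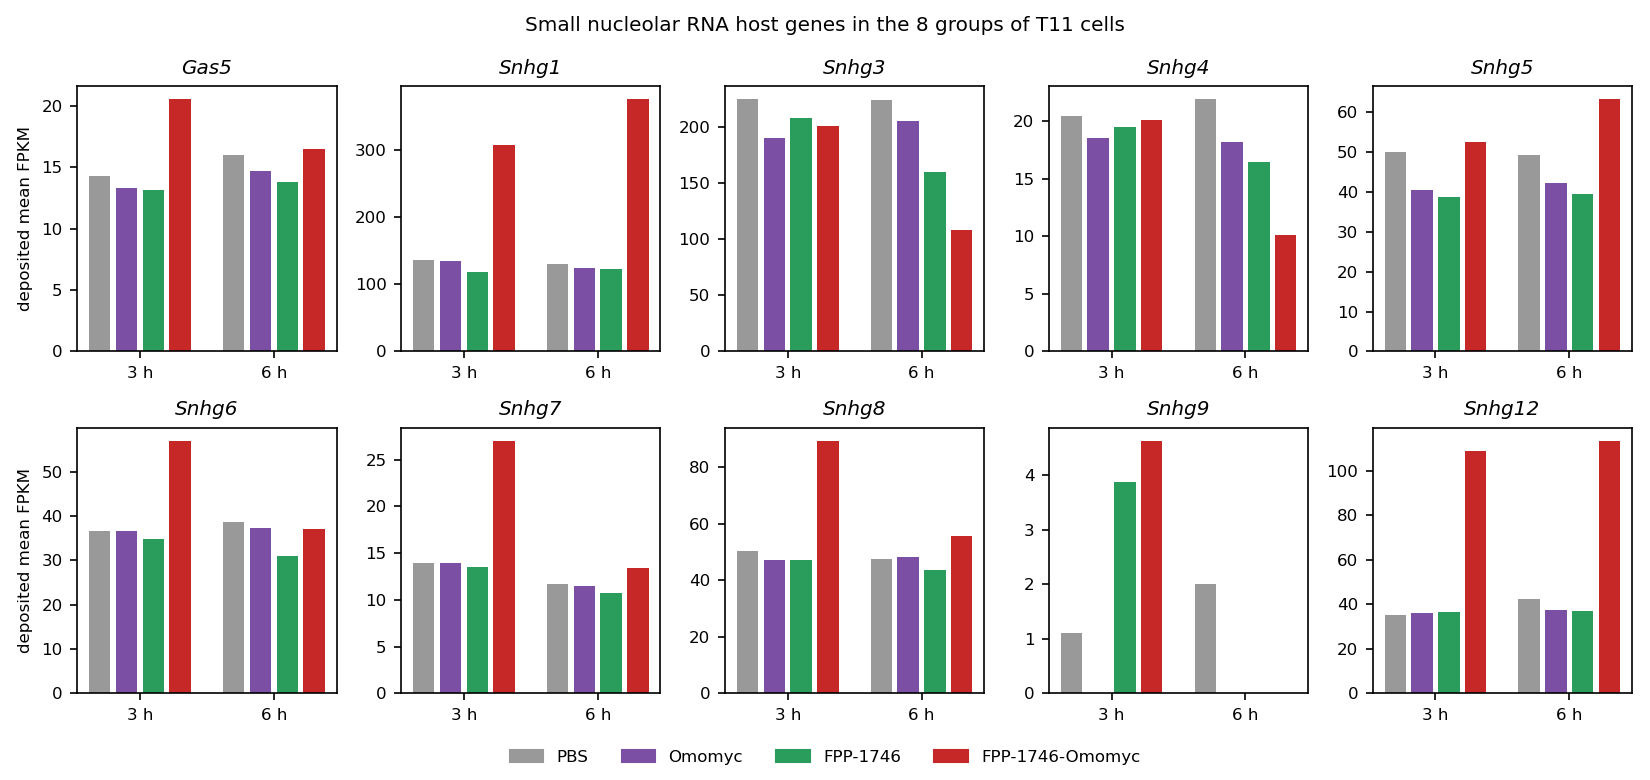
Deposited mean FPKM (y axis, from 0, own scale per gene) of each host gene after 3 h and 6 h of PBS (grey), Omomyc (purple), FPP-1746 (green) or the fusion (red); each bar is 1 averaged column, so there are no error bars. Snhg1 and Snhg12 are highest with the fusion at both times, while Snhg3 and Snhg4 are lowest with the fusion at 6 h.

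Snhg1 carries a series of box C/D RNAs in its introns and lies on chromosome 19 from 8797977 to 8800816 in mm9, the build of the table. Its level was 135 FPKM in PBS, 134 after Omomyc, 117 after FPP-1746 and 306 after the fusion at 3 h. At 6 h it was 130 in PBS, 124 after Omomyc, 122 after FPP-1746 and 376 FPKM after the fusion. Both fusion columns lay above all 6 others, and the log2 ratio over PBS was 1.17 at 3 h and 1.53 at 6 h.

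Snhg12 holds RNAs of both classes and lies on chromosome 4 from 131864593 to 131866939. At 3 h it stood in PBS at 35.4 FPKM, after Omomyc at 36.2, after FPP-1746 at 36.4 and after the fusion at 109. At 6 h the values were 42.5, 37.2, 37.1 and 114 FPKM in the same order. The fusion columns were again the highest, with log2 ratios of 1.59 and 1.40, and the 6 other columns spanned only 35.4 to 42.5 FPKM.

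Snhg3, the host of the box H/ACA RNA family known as U17, lies on chromosome 4 from 131907848 to 131909601 and had the highest level of the 10 in PBS. At 3 h it stood in PBS at 225 FPKM, after Omomyc at 190, after FPP-1746 at 208 and after the fusion at 201, which lay among the others. At 6 h it was at 224 in PBS, 206 after Omomyc, 160 after FPP-1746 and 108 FPKM after the fusion, the lowest of all 8 columns. The log2 ratio of the fusion over PBS was -0.17 at 3 h and -1.05 at 6 h. Rescaling the columns by their median ratio put the 6 h value at -0.98, short of 2-fold.

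Snhg4, which hosts the box H/ACA RNA Snora74a, lies on chromosome 18 from 35713064 to 35717970. At 3 h it stood in PBS at 20.4 FPKM, after Omomyc at 18.5, after FPP-1746 at 19.5 and after the fusion at 20.05. At 6 h the values were 21.9, 18.1, 16.5 and 10.1 FPKM in that order, so here too the fusion column was below all others at 6 h only. Its log2 ratio was -0.03 at 3 h and -1.05 at 6 h. The 6 h value was -0.99 after rescaling and -0.84 with a pseudocount of 5, both short of 2-fold.

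Snhg7 and Snhg8, hosts of H/ACA RNAs, and Snhg6 and Gas5, hosts of C/D RNAs, had their highest values with the fusion at 3 h. Snhg7 (chromosome 2, 26492696 to 26495764) stood in PBS at 13.9 FPKM, after Omomyc at 13.9, after FPP-1746 at 13.5 and after the fusion at 27.0 at 3 h, and at 11.7, 11.5, 10.7 and 13.4 FPKM at 6 h. Its log2 ratio of 0.91 at 3 h was the closest below the 2-fold line, and it was 1.02 when both PBS columns were averaged as the reference. Snhg3 and Snhg4 at 6 h were the closest beyond it.

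Snhg8 (chromosome 3, 123210470 to 123211254) went from 50.2 FPKM in PBS, 47.3 with Omomyc and 47.0 with FPP-1746 to 89.4 with the fusion at 3 h, and the 6 h values were 47.7, 48.1, 43.8 and 55.8 FPKM. Snhg6 (chromosome 1, 9932106 to 9934199) was at 36.5, 36.6, 34.8 and 57.0 FPKM at 3 h and at 38.6, 37.4, 31.0 and 37.0 FPKM at 6 h, in the order PBS, Omomyc, FPP-1746 and fusion. The log2 ratios over PBS were 0.82 and 0.22 for Snhg8 and 0.63 and -0.06 for Snhg6. Neither was called at either time, and only at 3 h did the fusion stand apart from all other columns of Snhg6.

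Gas5, first found as a transcript of growth-arrested cells and known to be held low by decay in growing ones, lies on chromosome 1 from 162965297 to 162968668. It stood in PBS at 14.3 FPKM, after Omomyc at 13.3, after FPP-1746 at 13.2 and after the fusion at 20.6 at 3 h, and at 16.0, 14.7, 13.8 and 16.5 FPKM at 6 h. The fusion column was the highest at both times, but the log2 ratios of 0.50 and 0.04 were not called. At 6 h the fusion exceeded PBS by less than the PBS columns differed from each other.

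Snhg5, the host of the box C/D RNAs called U50, lies on chromosome 9 from 88415891 to 88417735 and differed least from PBS at 3 h among the hosts with positive ratios. It stood in PBS at 50.1 FPKM, after Omomyc at 40.6, after FPP-1746 at 38.7 and after the fusion at 52.6 at 3 h, and at 49.3, 42.2, 39.6 and 63.4 FPKM at 6 h. The ratio over PBS was 0.07 at 3 h and 0.36 at 6 h on the log2 scale. Snhg5, Snhg1 and Snhg12 were the hosts whose fusion column was higher at 6 h than at 3 h.

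Snhg9 (chromosome 17, 24856476 to 24856910), the host of the H/ACA RNA Snora78, was the lowest of the 10. It stood in PBS at 1.11 FPKM, after Omomyc at 0, after FPP-1746 at 3.87 and after the fusion at 4.64 at 3 h, and at 2.01 in PBS and 0 in the 3 peptide columns at 6 h. With 4 of 8 columns listed at 0, its calls in either direction rest on a few FPKM, and its GENCODE transcript is 183 bases long, the shortest of the 8 hosts with a matched transcript. Its average of 1.45 FPKM passed the filter of 1 FPKM only because the 3 h fusion column was counted, so its call there is no support. Without Snhg9 the counts for the fusion were 2 higher at 3 h, and 2 higher and 2 lower at 6 h.

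The order of the levels changed with the fusion. FPKM is scaled to transcript length, so the hosts were ranked in it. How well that scaling holds for transcripts as short as those of Snhg9 (183 bases), Snhg6 (400) and Snhg3 (437) was not tested. In PBS at 3 h Snhg3 was followed by Snhg1, then by Snhg8 and Snhg5, Snhg6 and Snhg12, Snhg4, Gas5 and Snhg7, and Snhg9. Over the 6 columns without the fusion the ranges of Snhg8 (43.8 to 50.2 FPKM) and Snhg5 (38.7 to 50.1) overlapped, as did those of Snhg6 (31.0 to 38.6) and Snhg12 (35.4 to 42.5) and those of Gas5 (13.2 to 16.0) and Snhg7 (10.7 to 13.9). Snhg1 was 0.601 times Snhg3 in PBS at 3 h and 0.579 times at 6 h, and with the fusion it was 1.53 and 3.48 times Snhg3. Snhg12, at 0.157 and 0.190 times Snhg3 in PBS, reached 1.05 times with the fusion at 6 h. The sum over the 10 hosts was 583 FPKM in both PBS columns and 887 and 793 FPKM with the fusion.

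With either part alone no host other than Snhg9 was called, and most values with a part were slightly below PBS. For FPP-1746 at 3 h 1 of 10 was called, Snhg9 higher, where 0.322% of tested genes were higher and 0.292% lower. For Omomyc at 3 h 1 was called, Snhg9 lower, where 0.283% were higher and 0.331% lower. At 6 h Snhg9 alone was called, lower, with either part. The shares of tested genes called higher and lower at 6 h were 0.224% and 0.331% for FPP-1746 and 0.312% and 0.37% for Omomyc. The 9 other hosts lay between -0.48 and 0.04 on the log2 scale in these comparisons. The single calls end without Snhg9. Between the PBS columns none of 10 was called, where 0.867% of tested genes were, and the log2 ratios of 6 h over 3 h lay between -0.23 and 0.51. Between the fusion columns 1 was called lower at 6 h than at 3 h, Snhg9, where 4.92% of tested genes were. Snhg7 (-0.96), Snhg4 (-0.93) and Snhg3 (-0.89) came closest among the others.

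In detail, all 10 hosts were below PBS with FPP-1746 at 6 h, with a median log2 ratio of -0.25, where 47.3% of all tested genes were below. With Omomyc at 6 h 9 of 10 were below, where 48.9% of tested genes were. At 3 h 8 of 10 were below with either part, where 46.9% of tested genes were with FPP-1746 and 44.7% with Omomyc. Among the 6 columns without the fusion, PBS at 3 h was highest for 5 and PBS at 6 h for 4 of the 9 hosts other than Snhg9. FPP-1746 at 6 h was lowest for 5 of the 9 and FPP-1746 at 3 h for 3. Without Snhg9 the differences were small, the largest being that of Snhg3 with FPP-1746 at 6 h (-0.48), followed by Snhg4 (-0.39) in the same column. The comparisons share their PBS columns, so a high PBS value would lower all of them at once, and without replicates the size of that error is unknown.

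**Figure D2:**
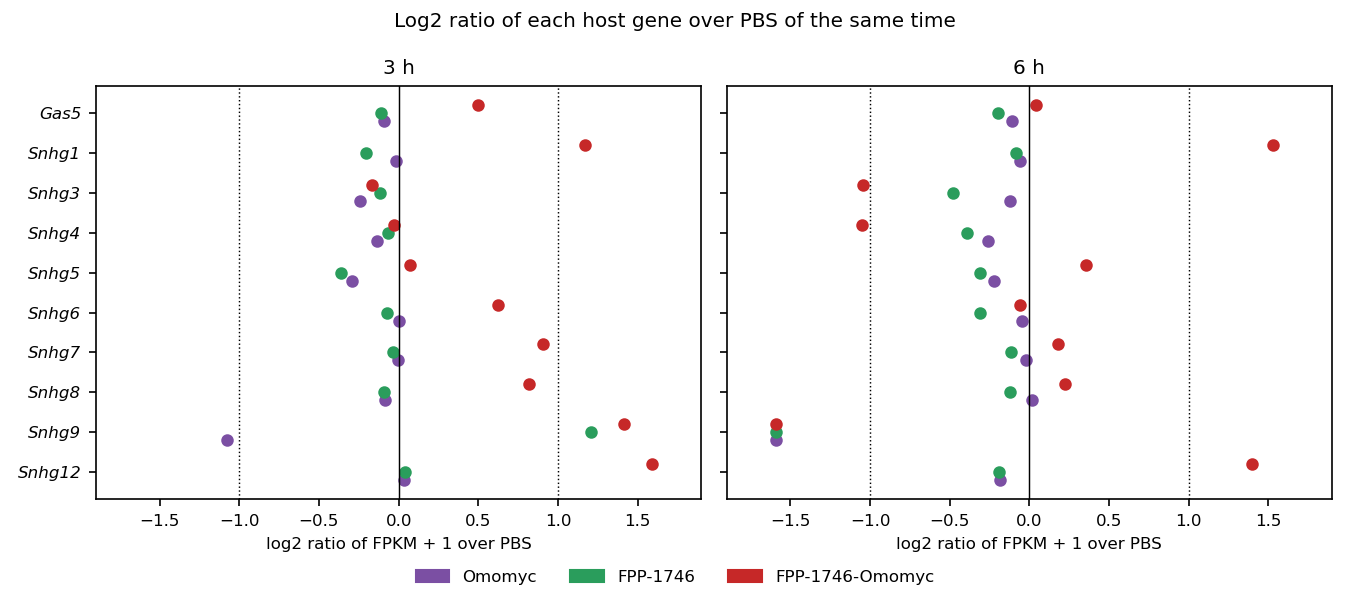
Log2 ratio of FPKM + 1 over PBS of the same time (x axis) for each host gene (y axis) with Omomyc (purple), FPP-1746 (green) and the fusion (red); dotted lines mark 2-fold. Apart from Snhg9 the values of the parts lie between -0.48 and 0.04, and the fusion spreads the hosts from -1.05 to 1.59.

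At the matched dose of 5 µM the fusion differed from its parts in the same 2 hosts at both times. Over FPP-1746 at 3 h the log2 ratio was 1.38 for Snhg1 and 1.55 for Snhg12, and 2 of 10 hosts were called higher where 5.86% of tested genes were and 4.01% were lower. Over Omomyc at 3 h they were 1.19 and 1.56, and Snhg9, listed at 0 with Omomyc, brought the calls to 3, where 5.56% of tested genes were higher and 3.76% lower. At 6 h Snhg1 stood at 1.61 over FPP-1746 and 1.59 over Omomyc, and Snhg12 at 1.59 and 1.58. Those 2 were the only calls, where 6.94% and 6.59% of tested genes were higher and 3.21% and 3.07% lower. Snhg3 and Snhg4 at 6 h were at -0.56 and -0.66 over FPP-1746 and at -0.93 and -0.79 over Omomyc, none of them called. With a 1.5-fold rule 6 hosts were called over FPP-1746 and 7 over Omomyc at 3 h, all higher, where 28.6% and 28% of tested genes were called. At 6 h it called 4 over each, where 31.8% and 32% of tested genes were called. Of these, Snhg4 was lower over FPP-1746, Snhg3 and Snhg4 were lower over Omomyc, and the rest were higher. These 4 comparisons have no interval, since each peptide is 1 column per time.

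Other non-coding host genes also differed among themselves. Of 11 listed, 9 were in the table, some under older symbols, and 8 were tested. With the fusion 3 of 8 were called higher at 3 h and 2 at 6 h, none lower, with medians of 0.53 and 0.29. The shares over all tested genes were 6.13% higher and 4.42% lower at 3 h and 7.13% and 3.34% at 6 h. Zfas1, a host of box C/D RNAs, was at 87.3 FPKM in PBS and 207 with the fusion at 3 h and at 100 and 224 FPKM at 6 h, log2 ratios of 1.23 and 1.15. Snhg16 (1.11 at 3 h, 1.09 at 6 h) was called at both times and Snhg15 (1.09, 0.78) at 3 h only. Snhg20, at -0.13 and -0.84, and Snhg10, at 0.36 and -0.72, had negative ratios at 6 h as Snhg3 and Snhg4 did. All 8 were below PBS with FPP-1746 at 3 h, where 46.9% of tested genes were, and with Omomyc at 6 h, where 48.9% were. Of the 17 non-coding hosts without Snhg9, 17 were below PBS with FPP-1746 at 6 h, where 47.3% of tested genes were. Their ratios lay between -0.48 and -0.08.

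Of protein-coding genes that also carry small nucleolar RNAs in introns, 20 were tested outside the ribosomal protein genes. None was called at 3 h, with a median of -0.08, where 6.13% of all tested genes were higher and 4.42% lower. At 6 h 1 was called, lower, with a median of -0.07, where 7.13% of all tested genes were higher and 3.34% lower. Nothing is read from these counts against those shares. Dkc1, the pseudouridine synthase of the H/ACA particle and itself a host, had the lowest value at 3 h (-0.93), and the chaperone gene Hspa8 was the gene called at 6 h (-1.07). Rack1, a ribosome-bound scaffold, was at 0.76 at 3 h and -0.04 at 6 h.

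Ribosomal protein genes, whose mRNAs are of the TOP class, stood above PBS at 3 h and mostly not at 6 h. Of 70 tested, 65 were above 0 at 3 h, where 50.2% of all tested genes were, with a median of 0.58. At 3 h 7 of the 70 were called higher, beside 6.13% of all tested genes. At 6 h 18 were above 0, where 47.9% of all tested genes were, with a median of -0.14. None was called then, beside 7.13% of all tested genes called higher and 3.34% lower. Rps29 (1.30), Rps10 (1.16) and Rpl22l1 (1.15) had the highest ratios at 3 h, Rps29 at only 0.348 FPKM in PBS and 2.33 with the fusion, and reads of ribosomal protein genes can be split with near-identical pseudogenes. Of 10 other genes of TOP mRNAs none was called at either time, beside shares of 6.13% and 7.13% higher and 4.42% and 3.34% lower. Their medians were 0.14 and -0.52, with Eef1b2 (0.71), Eef1a1 (0.69) and Eef2 (0.68), which encode elongation factors and of which Eef1b2 and Eef2 are hosts too, highest at 3 h and Pabpc1 (-0.86) lowest at 6 h. Beside these lists, Gas5, Snhg6, Snhg7 and Snhg8 had ratios of 0.50 to 0.91 at 3 h and of -0.06 to 0.22 at 6 h, when 3 of the 4 were above 0. These 4 were grouped after their values were seen, so their course beside the lists is no finding. Snhg5 (0.07 at 3 h, 0.36 at 6 h), Snhg3 (-0.17, -1.05) and Snhg4 (-0.03, -1.05) took another course. The ratios of Snhg1 and Snhg12 at 6 h were 1.53 and 1.40. With the columns rescaled by their median ratio, Gas5, Snhg6, Snhg7 and Snhg8 lay between 0.48 and 0.89 at 3 h. Whether a general shift in the 3 h fusion column, which had the highest FPKM sum, took part in these values was not tested.

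**Figure D3:**
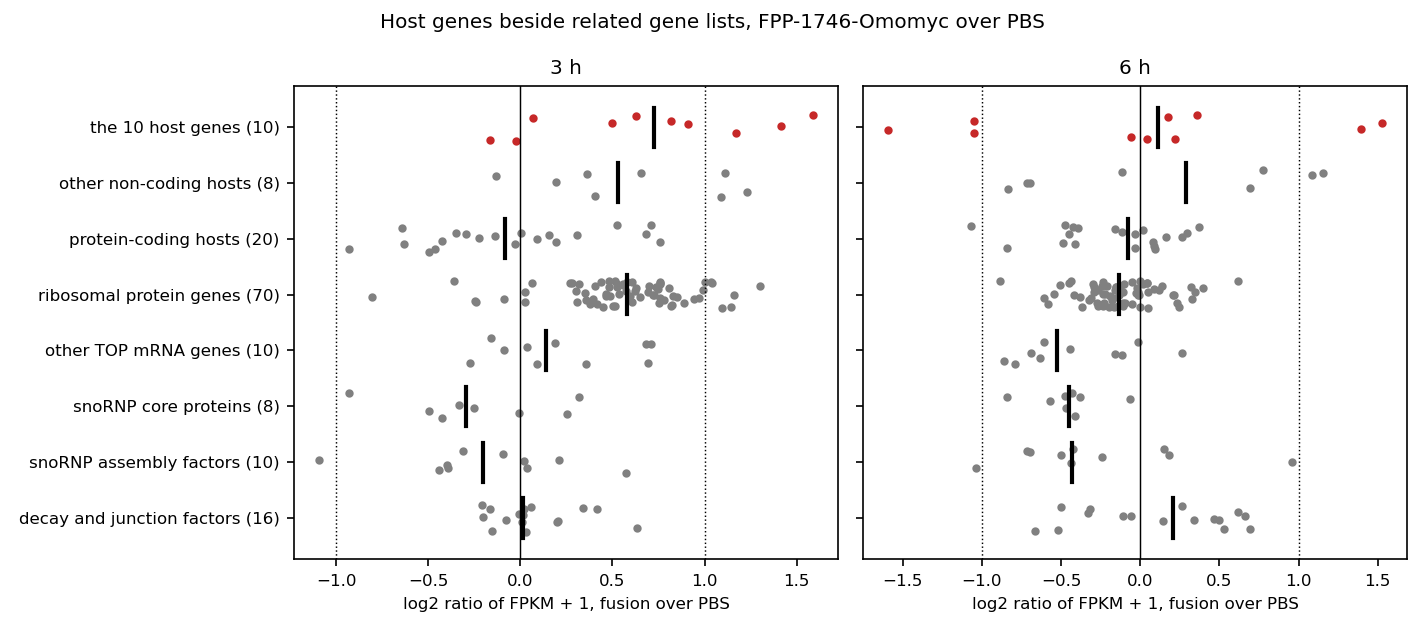
Log2 ratio of FPKM + 1, fusion over PBS (x axis), of every tested gene of each list (points, number in brackets) with the list median (black bar) at 3 h and 6 h; dotted lines mark 2-fold. The host genes (red) have medians of 0.72 and 0.11 and the ribosomal protein genes 0.58 and -0.14. The genes of the core proteins of the particles have medians of -0.29 and -0.45.

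The mRNAs of the proteins that small nucleolar RNAs assemble with were mostly below PBS. Of the 8 core protein genes none was called, with medians of -0.29 at 3 h and -0.45 at 6 h. Over all tested genes 6.13% were called higher and 4.42% lower at 3 h, and 7.13% and 3.34% at 6 h. All 8 were below 0 at 6 h, where 51.7% of tested genes were. Dkc1 was at 136 FPKM in PBS and 71.1 with the fusion at 3 h. The C/D core genes Nop58 and Nop56, both also hosts, were below PBS at both times without being called: Nop58 was at -0.50 and -0.41 and Nop56 at -0.43 and -0.47. Fbl, the ribose methyltransferase, was at 0.32 and -0.06. Of 10 assembly factors 1 was called lower at each time, Znhit6 at 3 h (-1.09) and Rpap3 at 6 h (-1.03), while Nufip1 was at 0.58 and 0.96.

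For factors of nonsense-mediated decay and of the exon junction complex none of 16 was called at either time, and their medians were 0.02 and 0.20. The shares called over all tested genes were 6.13% higher and 4.42% lower at 3 h, and 7.13% and 3.34% at 6 h. At 6 h Smg8 (0.69, after 0.20 at 3 h) had the highest value and Magohb (-0.66) the lowest. Upf1, the central helicase of the pathway, was at -0.16 and -0.06. These are levels of mRNA, and decay itself was not measured.

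Most of the small nucleolar RNAs carried by the hosts were listed too unevenly for a firm comparison with them. The locus column gives 14 small RNA records the span of a host, 12 of them small nucleolar RNAs, in 8 of the 10 hosts. No host shares its locus with a longer gene. Of the 12, 9 were listed at 0 in at least 1 column and Snora24 in all 8. A GENCODE M21 transcript of 2 such RNAs shows how short they are. Capitals mark TGATGA, the core of box C, and CTGA, box D.
Snord47, in Gas5: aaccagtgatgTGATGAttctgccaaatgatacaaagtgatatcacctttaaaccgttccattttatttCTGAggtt
Snord99, in Snhg12: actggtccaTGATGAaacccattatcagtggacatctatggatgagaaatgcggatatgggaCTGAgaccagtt
Snord99, 74 bases long, was listed at 1692 FPKM in PBS and 548 with FPP-1746 at 3 h and at 0 in the 6 other columns, while its host Snhg12 was highest with the fusion. Snord47, 77 bases long, stood in PBS at 817 FPKM, after Omomyc at 561, after FPP-1746 at 1065 and after the fusion at 143 at 3 h. At 6 h it was at 1170, 450, 1512 and 364 FPKM in that order. It was thus lowest with the fusion at both times, in columns where Gas5 was highest, though the other 6 columns spanned 450 to 1512 FPKM as well. Snora44, in Snhg12, was at 6.31 FPKM in PBS and 15.9 with the fusion at 3 h and at 11.4 and 18.2 FPKM at 6 h, but at 0 with Omomyc at 6 h. Snord22, in Snhg1, was at 4.18 FPKM in PBS at 3 h and between 17.1 and 39.0 in the 7 other columns. Snora78, in Snhg9, was at 12.0 to 15.8 FPKM in the 3 h columns and at 3.70 to 5.25 in the 6 h columns. How many fragments lie behind the FPKM of records this short is not known here, and how well the libraries recovered the mature RNAs was not tested.

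Among the neighbours, the gene beside Snhg1 rose with it. Slc3a2 encodes the heavy chain of a family of amino acid transporters. Its record lies 117 bases from that of Snhg1 on the opposite strand, and the genes are transcribed away from each other. Slc3a2 stood in PBS at 163 FPKM, after Omomyc at 165, after FPP-1746 at 167 and after the fusion at 333 at 3 h, and at 120, 118, 119 and 278 FPKM at 6 h. Its log2 ratios over PBS of 1.03 and 1.20 were both called, beside 1.17 and 1.53 for Snhg1. Strand use in the counting is not given in the sources used here, but the records do not overlap.

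Trnau1ap, a gene of selenoprotein synthesis 738 bases from the far end of Snhg12 on the opposite strand, went the other way. Its level was 44.3 FPKM in PBS and 37.7 with the fusion at 3 h, and at 46.2 and 19.3 FPKM at 6 h, where its log2 ratio of -1.22 was called lower. Rps2, 97 bases from Snhg9, was listed at 1.56 to 2.26 FPKM with no call. Of the 11 neighbouring gene records within 5000 bases of 9 hosts, Slc3a2 and Trnau1ap were the only ones called for the fusion over PBS at 3 h or 6 h. Over all tested genes 6.13% were higher and 4.42% lower at 3 h, and 7.13% and 3.34% at 6 h. The neighbours were not filtered by level: 6030422M02Rik was at 0 in every column and Prss12 at or below 0.0317 FPKM. Nothing is read from this count.

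**Figure D4:**
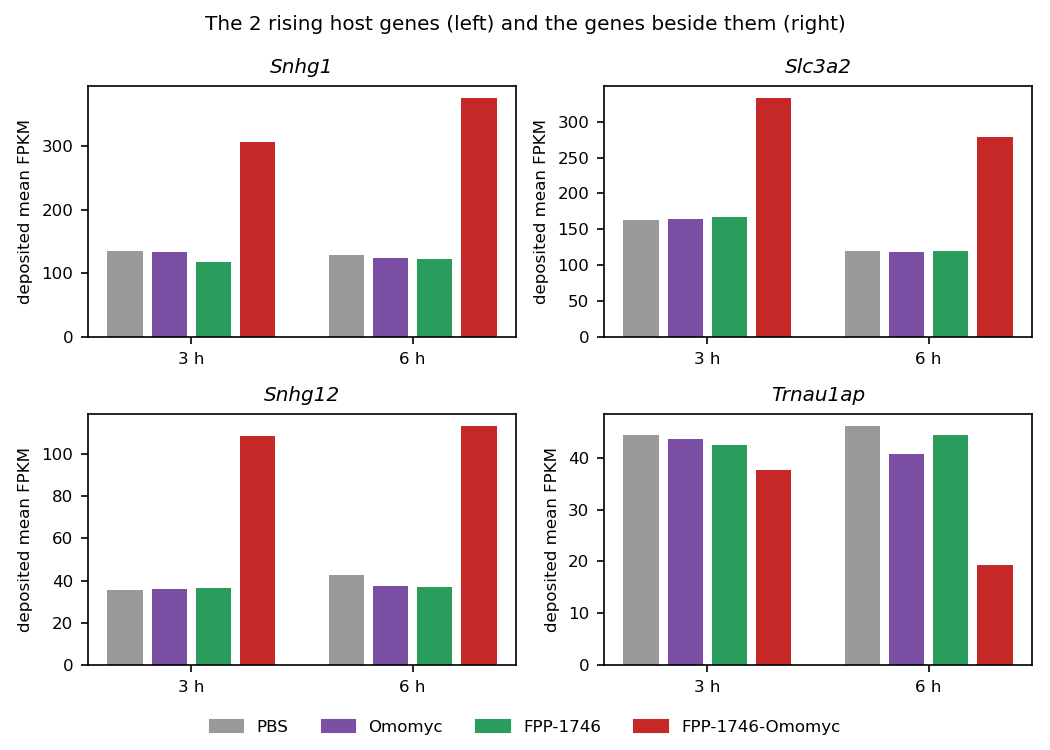
Deposited mean FPKM (y axis, from 0) of Snhg1 and Snhg12 (left) and of the genes beside them, Slc3a2 and Trnau1ap (right), in the 8 averaged columns, colours by treatment. Slc3a2 reaches 333 and 278 FPKM with the fusion as Snhg1 reaches 306 and 376, while Trnau1ap is lowest, at 19.3 FPKM, with the fusion at 6 h.

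The hosts did not move as a single profile. Over the 8 columns, Pearson's r of log2(FPKM + 1) between pairs of hosts lay between -0.65 and 0.98 with a median of 0.54 and was above 0 in 36 of 45 pairs. The points share their PBS columns and libraries, and the 2 fusion columns set much of each value. Of 7452 other genes averaging 5 FPKM or more, those most like the mean profile of the hosts were Acp2 (r = 0.96), Evi2a (0.96), Sepw1 (0.95), Rps21 (0.94) and Ubxn6 (0.94). That mean includes Snhg9, listed at 0 in 4 of the 8 columns, so its swings shape the profile. Likeness to a mean without Snhg9 was not tested. Rps21 is a ribosomal protein gene and Sepw1 encodes a selenoprotein. For Snhg1 alone, looked up after the values were seen, the closest were Nudt9, Lrrc8d, Gltscr2, Nupr1 and Siah1b, with r of 0.99 or more. Nupr1, a stress-induced gene, was at 87.8 FPKM in PBS and 298 with the fusion at 3 h and at 77.9 and 409 FPKM at 6 h. For Snhg12 they were Mt1, Cflar, Wdr45, Kdm6a and Btbd10, with Mt1, a metallothionein gene, at 216 and 805 FPKM at 3 h.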

How the data were processed

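Total RNA of 24 samples of T11 cells was sequenced, and the authors deposited 1 table of FPKM with a column for each of 8 groups, their mean over 3 replicates. Cuffnorm 2.2.1, Cufflinks 2.2.1, STAR 2.1.3, bcl2fastq 2.17.1.14 and mm9 are named in the submitters' processing notes, with no settings, so the library scaling is not given in the sources used here. Starts were shifted to count from 1, and 8 of 10 spans then equalled the RefSeq span.

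The genes and lists were chosen with earlier results of these data known. Log2 ratios of FPKM + 1 were taken over the 10262 genes averaging 1 FPKM or more and called at 2-fold, which understates changes of low genes. With 1 averaged column per group no test was run. From each list up to 3 genes with the largest ratios were named, with the nearest records within 5000 bases of a host. Others were named after their values were seen. The values of 1 listed gene are not reported here. Python 3.11.15, pandas 2.3.3, NumPy 2.4.6 and Matplotlib 3.10.9 were used. Alternatives covered the pseudocount (0.1 and 5), scaling, the filter, the fold and the PBS reference.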

Additional observations from a re-analysis of the deposited data

Results flagged for a closer look

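Snhg9 was called in opposite directions at 3 h and 6 h over PBS. Its log2 ratio of FPKM + 1 was 1.42 with the fusion at 3 h and -1.59 at 6 h, and 1.21 with FPP-1746 at 3 h and -1.59 at 6 h. Each is 1 averaged column against 1, so whether the times differ was not tested. At 6 h all 3 peptide columns were listed at 0 against 2.01 FPKM in PBS, so the values there depend on the pseudocount and are no estimate of a fold.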

How the results depend on the processing

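Snhg1 and Snhg12 were called higher for the fusion over PBS and over each part, at both times, under every alternative run. Over PBS Snhg1 ranged from 1.15 to 1.20 at 3 h and from 1.496 to 1.59 at 6 h, and Snhg12 from 1.46 to 1.62 and from 1.32 to 1.52. No called ratio changed sign. For the fusion over PBS the 1.5-fold rule called 6 hosts at 3 h, all higher, in place of 3, with 1612 of tested genes higher. At 6 h the count of 5 became 3 with a pseudocount of 5 and 3 with median-of-ratios rescaling, each with 2 higher and 1 lower. The calls over all 10262 tested genes moved as well. From 732 higher and 343 lower they became 365 and 152 with that pseudocount, and 850 and 265 with rescaling. The 1.5-fold rule called 6 over FPP-1746 and 7 over Omomyc at 3 h, all higher, and 4 over each at 6 h. Of those at 6 h, Snhg4 was lower over FPP-1746, and Snhg3 and Snhg4 were lower over Omomyc. For FPP-1746 or Omomyc over PBS the single call, Snhg9, became 0 with a pseudocount of 5, with a minimum mean of 5 FPKM and without Snhg9 (an alternative chosen after seeing the data), at both times, and for FPP-1746 at 3 h also with the mean of the PBS columns. The first 3 settings leave Snhg9 out or damp its low values, and the mean of the PBS columns put its ratio at 0.93. No paired analysis was possible because the table holds only group means, and for the same reason no replicate could be left out. The depth of single libraries is unknown.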
